A study of Mus musculus with 16 samples.

Results

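The VEGF and angiopoietin family factors are 9 genes for secreted proteins that steer the growth and upkeep of blood and lymphatic vessels. They are the VEGF ligands Vegfa, Vegfb, Vegfc, Vegfd and Pgf (placental growth factor), the angiopoietins Angpt1 and Angpt2, and the angiopoietin-like factors Angptl2 and Angptl4. The genes were taken by symbol, matched to Ensembl identifiers, from 55414 genes in the count table, and all 9 were among the 15285 genes that passed a filter on low counts. RNA sequencing of cultured mouse cardiac fibroblasts gave 16 libraries in 4 groups of 4. The groups were cells with the Cre adenovirus and TGF-beta, cells with the GFP adenovirus and TGF-beta, cells with the Cre virus alone, and cells with the GFP virus alone, called here Cre + TGF-beta, GFP + TGF-beta, Cre and GFP. The Cre virus was meant to delete exon 2 of Has2, the gene of a hyaluronan synthase, in cells that one label field gives as Has2 fl/fl and another as wild type C57BL/6J, so the genotype is not settled. All cells were starved of serum for 24 h, exposed to virus for 5 h and collected after 48 h of stimulation. The growth medium held basic fibroblast growth factor. The labels name it with TGF-beta at 20 ng/mL for the stimulation, and whether cells without TGF-beta also received it then is not clear. If they did not, effects of TGF-beta and of this factor cannot be told apart in the differences given here as TGF-beta. The age of the mice and whether a preparation came from 1 heart or several were not given in the sources used here.

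VEGF ligands are dimers that act through tyrosine kinase receptors, mostly on endothelial cells. Vegfa signals mainly through Kdr (VEGFR2), Vegfb and Pgf bind Flt1 (VEGFR1), and Vegfc and Vegfd bind Flt4 (VEGFR3), the receptor of lymphatic endothelium. Angpt1 activates the receptor Tek (Tie2) and steadies vessels, whereas Angpt2 is a context-dependent antagonist at the same receptor. Angptl2 and Angptl4 resemble angiopoietins in structure but do not bind Tek. Angptl2 is a secreted factor linked to inflammation, and Angptl4 inhibits lipoprotein lipase. Fibroblasts are a source of several of these ligands in the heart, and TGF-beta is the growth factor that turns them into contractile, matrix-producing myofibroblasts.

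Library totals ranged from 17.9 to 48.7 M counts. Levels are given as CPM (counts per M counts after TMM scaling). Libraries with the same number, 1 to 4, have library names in the labels that begin alike, and each such set is called here a preparation, with 1 and 4 male and 2 and 3 female. The libraries labelled as fibroblasts carried fibroblast markers, with a sum over 8 genes between 14533 and 46527 CPM. Preparation 4 stood apart in every group. Its fibroblast sum was 14533 to 20451 CPM, against 34765 to 46527 CPM in the other preparations. Its macrophage sum over 8 genes was 912 to 1588 CPM, against 404 to 860 CPM. Acta2, the smooth muscle actin of myofibroblasts, rose with TGF-beta by 2.83 ± 0.24 in Cre cells and 2.77 ± 0.24 in GFP cells (log2 fold change ± SE, edgeR quasi-likelihood test, adjusted p = 9.15e-07 and 1.14e-06). Has2 counts cover the whole gene and cannot separate exon 2, and Has2 differed between Cre and GFP cells by -0.03 ± 0.26 with TGF-beta and -0.35 ± 0.26 without it (edgeR, adjusted p = 0.9996 and 0.9997). In these bulk cultures, fewer cells of a type and less RNA per cell cannot be told apart.

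Per kilobase of exon, 4 of the factors were about equally abundant in cells without TGF-beta. In GFP cells Vegfd averaged 44.8 ± 23.8 CPM per kb, Vegfa 39.9 ± 5.92, Angptl2 37.1 ± 3.61 and Angptl4 34.0 ± 17.2 (SD, n = 4), and the ranges of these 4 genes over libraries overlapped. Vegfb followed at 15.9 ± 1.93 CPM per kb and Vegfc at 8.37 ± 0.781. Pgf (1.74 ± 0.152), Angpt1 (1.23 ± 0.533) and Angpt2 (1.05 ± 0.218) had the lowest levels per length, and each overlapped its neighbour in this order. In Cre cells the levels per kb had nearly the same order, with Vegfa at 41.9 ± 3.62 and Vegfd at 40.7 ± 22.0.

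With TGF-beta Vegfa stood apart at the top. It averaged 132 ± 10.1 CPM per kb in Cre + TGF-beta cells and 137 ± 13.4 in GFP + TGF-beta cells, above every library of every other member. Angptl4 was next, at 47.3 ± 25.1 and 46.4 ± 15.7 CPM per kb in these groups, then Angptl2 at 19.4 ± 1.79 and 22.1 ± 1.88. Vegfc then stood above Vegfb, at 11.2 ± 1.64 against 7.62 ± 0.668 CPM per kb in Cre + TGF-beta cells and 11.3 ± 1.88 against 8.29 ± 0.914 in GFP + TGF-beta cells. The ranges of Vegfc and Vegfb overlapped in GFP + TGF-beta cells and not in Cre + TGF-beta cells. Vegfd was near Pgf, at 2.61 ± 0.996 and 2.73 ± 1.02 CPM per kb, and Angpt1 and Angpt2 were lowest.

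**Figure D1:**
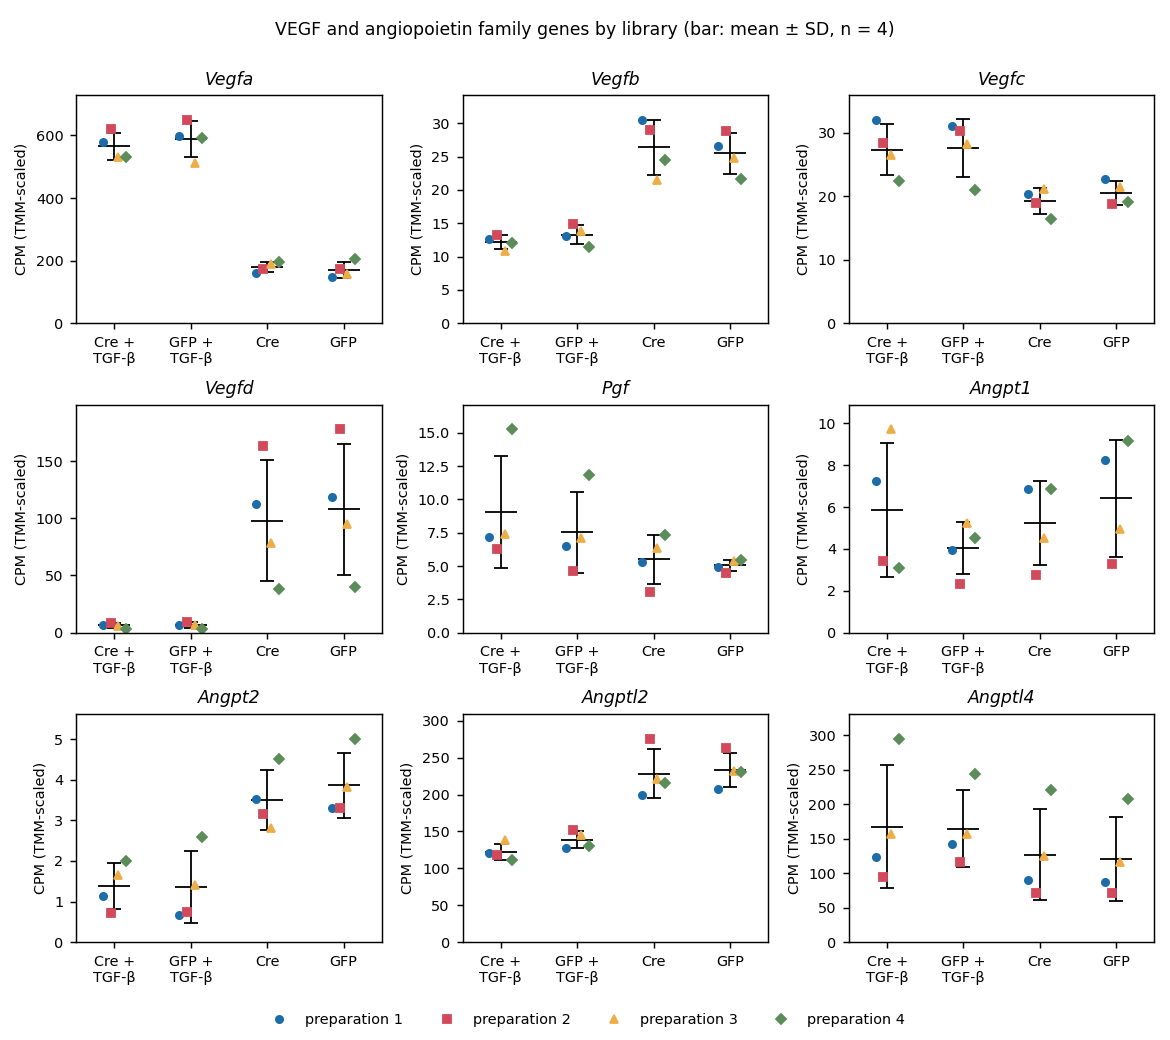
CPM (TMM-scaled, linear axis from 0) of the 9 genes in every library, by group, with 4 points per group for preparations 1 to 4 and a bar for the mean. Vegfa is at least 511 CPM in all 8 libraries with TGF-beta and at most 206 CPM in the 8 without it, while Vegfd is at most 9.42 CPM with TGF-beta and at least 38.0 CPM without it.

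The promoters of the VEGF genes that moved most and of Angptl2 are shown because these genes moved in opposite directions with TGF-beta. They are the bases upstream of the transcription start, from RefSeq on GRCm38.p6, read 5′ to 3′ on the gene's strand. Vegfa is on the minus strand at chr17:46032378-46032627, Vegfb on the minus strand at chr19:6987652-6987901, Vegfd on the plus strand at chrX:164373272-164373377 and Angptl2 on the plus strand at chr2:33215711-33215960. Capitals mark matches, on either strand, to the SMAD element CAGAC and to the GC box GGGCGG.
Vegfa: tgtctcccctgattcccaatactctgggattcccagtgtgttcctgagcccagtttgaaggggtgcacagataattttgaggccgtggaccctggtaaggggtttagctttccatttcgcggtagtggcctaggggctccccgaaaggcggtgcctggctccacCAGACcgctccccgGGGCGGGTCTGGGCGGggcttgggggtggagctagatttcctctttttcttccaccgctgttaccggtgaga
Vegfd: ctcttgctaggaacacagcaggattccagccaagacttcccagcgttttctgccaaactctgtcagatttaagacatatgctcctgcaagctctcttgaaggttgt
Vegfb: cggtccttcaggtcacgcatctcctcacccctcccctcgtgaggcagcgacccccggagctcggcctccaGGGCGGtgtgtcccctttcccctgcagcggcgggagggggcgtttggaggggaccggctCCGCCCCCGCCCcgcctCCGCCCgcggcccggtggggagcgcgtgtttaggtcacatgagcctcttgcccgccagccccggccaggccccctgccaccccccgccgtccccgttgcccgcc
Angptl2: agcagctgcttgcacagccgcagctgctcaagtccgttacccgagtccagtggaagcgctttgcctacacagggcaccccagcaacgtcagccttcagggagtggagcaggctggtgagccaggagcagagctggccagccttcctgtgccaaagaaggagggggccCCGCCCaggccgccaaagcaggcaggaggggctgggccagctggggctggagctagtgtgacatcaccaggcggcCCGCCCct

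In the 250 bases before the start, Vegfa had 2 matches to CAGAC, at -86 and -66, and 2 to GGGCGG, at -72 and -62, the last of which shares 1 base with the CAGAC match at -66. Vegfb had 4 GC boxes and Angptl2 had 2, and neither had a CAGAC match. Vegfd had neither motif in its 250 bases, of which the 106 upstream of both the RefSeq and the GENCODE start are printed. CAGAC occurred in 42.2% and GGGCGG in 32.7% of 32851 promoter windows of the same length, so both are common. None of the 4 windows held the hypoxia response core ACGTG, found in 16.6% of windows, or the AP-1 site TGANTCA, found in 6.75%. These matches describe letters only, and no binding was measured. Vegfc and Pgf windows also lacked CAGAC and held 2 GC boxes each. The RefSeq table used here had no entry for Angpt1, Angpt2 or Angptl4.

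TGF-beta changed 6 of the 9 factors in both Cre and GFP cells. Vegfa and Vegfc rose, and Vegfd, Vegfb, Angpt2 and Angptl2 fell. The largest change was in Vegfd, which was lower with TGF-beta by 12.1 to 18.4 times over the 4 preparations in Cre cells and by 11.6 to 18.9 times in GFP cells. Pgf, Angpt1 and Angptl4 did not pass the test. Genes were called at an adjusted p under 0.05 by edgeR's quasi-likelihood test with 1 mean per group, which called 30.3% of all genes tested in Cre cells (14.0% higher, 16.3% lower) and 29.1% in GFP cells (13.8% higher, 15.3% lower). The median log2 fold change of the 9 factors was 0.16 in Cre cells and -0.68 in GFP cells, against 0.016 and -0.019 over all genes. Both medians are the value of a single gene, Angpt1, which was not called, so they do not describe the factors as a set. With the preparation as a block, 8 of 9 factors were called in each, 4 higher and 4 lower, beside 52.5% of all genes in Cre cells (25.2% higher, 27.3% lower) and 49.1% in GFP cells (22.6% higher, 26.5% lower). With 1 mean per group and without preparation 4, 6 factors were called in each, beside 6479 genes in Cre cells and 6055 in GFP cells. Without preparation 1, 2 or 3, 4 factors were called in Cre cells and 4 or 5 in GFP cells, beside 2317 to 2876 and 2239 to 2831 genes. With the block, leaving out any 1 preparation gave 8 factors in Cre cells and 7 or 8 in GFP cells. Beside them, 6288 to 8586 genes were called in Cre cells and 5719 to 8051 in GFP cells.

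**Figure D2:**
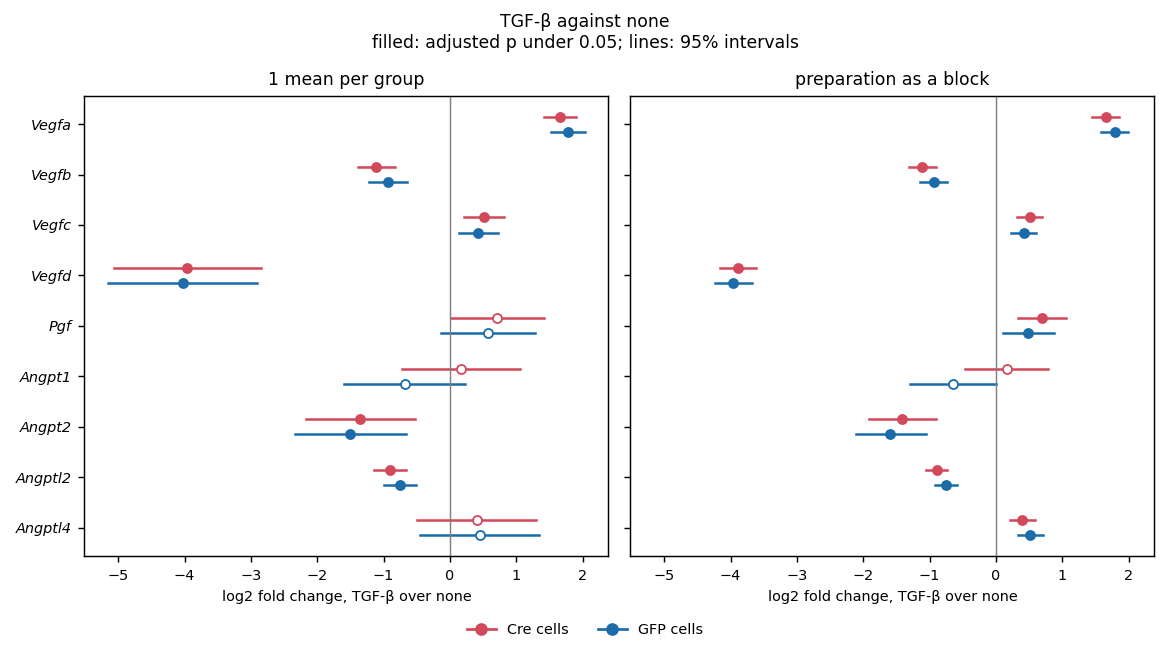
Log2 fold change of each factor with TGF-beta over none, in Cre and GFP cells, from the edgeR fit with 1 mean per group and from the fit blocked on preparation. Points are estimates, lines 95% intervals, and filled points have an adjusted p under 0.05. With 1 mean per group Vegfa lies at 1.66 in Cre and 1.78 in GFP cells and Vegfd at -3.96 and -4.03, and Pgf and Angptl4 are filled only with the block.

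Vegfa, the main inducer of angiogenesis, had 579, 621, 533 and 529.9 CPM in the Cre + TGF-beta libraries of preparations 1 to 4, against 160.4, 174, 188 and 195 CPM in the Cre libraries. It had 598, 650.3, 511 and 592 CPM in GFP + TGF-beta cells, against 147, 173, 158 and 206 CPM in GFP cells. Every library with TGF-beta was above every library without it. The rise was 1.66 ± 0.12 in Cre cells (log2 fold change ± SE, edgeR adjusted p = 1.52e-07) and 1.78 ± 0.12 in GFP cells (adjusted p = 9.00e-08). Within preparations it was 2.72 to 3.61 times in Cre cells and 2.88 to 4.06 times in GFP cells. Ranked by fold change among 15285 genes, Vegfa was the 333rd highest in Cre cells and the 302nd in GFP cells.

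Vegfd, a ligand of the lymphatic receptor Flt4, had 6.97, 8.89, 6.13 and 3.13 CPM in Cre + TGF-beta cells of preparations 1 to 4, against 112, 163, 78.3 and 38.0 CPM in Cre cells. It had 6.36, 9.42, 7.08 and 3.44 CPM in GFP + TGF-beta cells, against 119, 178, 95.02 and 39.7 CPM in GFP cells. Preparation 2 was highest and preparation 4 lowest in each of the 4 groups, and libraries with and without TGF-beta did not overlap. The fall was -3.96 ± 0.52 in Cre cells (log2, edgeR adjusted p = 5.08e-05) and -4.03 ± 0.53 in GFP cells (adjusted p = 4.53e-05). With the preparation as a block the SE was 0.13 in both, around -3.89 and -3.96. Vegfd ranked 80th lowest of all genes tested in Cre cells and 82nd in GFP cells. Over all genes 14.0% rose and 16.3% fell with TGF-beta in Cre cells, and 13.8% and 15.3% in GFP cells. With the block these shares were 25.2% and 27.3% in Cre cells, and 22.6% and 26.5% in GFP cells. Of the 8 fibroblast markers, 6 fell and 0 rose with TGF-beta in each virus. With the block 6 of these markers fell in each virus, while 1 rose in Cre cells and 2 in GFP cells. Their summed level was 14533 to 39181 CPM in Cre + TGF-beta cells and 17731 to 43997 CPM in GFP + TGF-beta cells, against 19148 to 44045 CPM in Cre cells and 20451 to 46527 CPM in GFP cells, with no marker at 0. The part of this in the Vegfd value was not tested.

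Vegfb, a Flt1 ligand linked to fatty acid handling and heart vessels, had 12.7, 13.3, 10.8 and 12.1 CPM in Cre + TGF-beta cells, against 30.5, 29.0, 21.6 and 24.5 CPM in Cre cells. It had 13.1, 14.9, 13.8 and 11.4 CPM in GFP + TGF-beta cells, against 26.7, 28.9, 24.8 and 21.6 CPM in GFP cells. All libraries with TGF-beta lay below all those without. The fall was -1.11 ± 0.13 in Cre cells (log2, edgeR adjusted p = 1.88e-05) and -0.94 ± 0.13 in GFP cells (adjusted p = 9.16e-05).

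Vegfc, the main growth factor of lymphatic vessels, had 32.0, 28.4, 26.5 and 22.4 CPM in Cre + TGF-beta cells, against 20.3, 19.0, 21.1 and 16.4 CPM in Cre cells. It had 31.1, 30.3, 28.1 and 21.0 CPM in GFP + TGF-beta cells, against 22.8, 18.7, 21.4 and 19.1 CPM in GFP cells. The groups did not overlap in Cre cells, and in GFP cells they overlapped through preparation 4. The rise was 0.51 ± 0.14 in Cre cells (log2, edgeR adjusted p = 0.0123) and 0.43 ± 0.14 in GFP cells (adjusted p = 0.0319). In GFP cells the call was lost when any of 6 libraries was left out (GFP of preparation 2, 3 or 4, or GFP + TGF-beta of preparation 1, 2 or 3; Vegfc 0.37 to 0.44, adjusted p 0.0549 to 0.0946), with no filter on low counts (0.0702) and with only the libraries compared (0.0526). In either virus it was lost without preparation 1, 2 or 3 (Vegfc 0.35 to 0.59, adjusted p 0.0519 to 0.210), but it held in all of these preparation sets with the block (Vegfc adjusted p up to 0.0187).

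Pgf, a Flt1 ligand, had 7.20, 6.25, 7.39 and 15.3 CPM in Cre + TGF-beta cells, against 5.28, 3.09, 6.35 and 7.35 CPM in Cre cells. It had 6.47, 4.66, 7.14 and 11.8 CPM in GFP + TGF-beta cells, against 4.96, 4.46, 5.35 and 5.42 CPM in GFP cells. Preparation 4 was highest in all 4 groups, and the groups with and without TGF-beta overlapped. The difference was 0.71 ± 0.33 in Cre cells (log2, edgeR adjusted p = 0.112) and 0.58 ± 0.33 in GFP cells (adjusted p = 0.212), higher in 4 of 4 preparations each time. With the preparation as a block Pgf was called, at 0.70 ± 0.17 (adjusted p = 0.00313) and 0.49 ± 0.18 (adjusted p = 0.0336). Without preparation 4 the blocked call held in Cre cells (0.56, adjusted p = 0.00511) and not in GFP cells (0.28, adjusted p = 0.156), where it was also lost without preparation 1 (0.52, adjusted p = 0.0935) or 3 (0.54, adjusted p = 0.0616).

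The share of Vegfa in the messenger RNA of the VEGF ligands was higher in every library with TGF-beta than in any without it. As a share of the 5 ligands' summed CPM per kb, Vegfa was 84.3 ± 0.545% in Cre + TGF-beta cells and 84.6 ± 1.77% in GFP + TGF-beta cells, against 39.9 ± 10.5% in Cre cells and 37.6 ± 11.9% in GFP cells (SD, n = 4). Vegfd was 1.64 ± 0.541% and 1.68 ± 0.578% with TGF-beta, against 35.5 ± 13.5% and 38.5 ± 14.3% without it. In cells without TGF-beta the shares varied by preparation, with Vegfd at 52.3% in GFP cells of preparation 2 and 18.8% in those of preparation 4. Of Vegfa and Vegfd, Vegfd had the larger share in preparations 1 and 2 and Vegfa in preparation 4 under both viruses, while in preparation 3 the larger was Vegfa in Cre cells and Vegfd in GFP cells. The sum of the 5 ligands was 156 ± 11.7 CPM per kb in Cre + TGF-beta cells and 162 ± 14.2 in GFP + TGF-beta cells, against 109 ± 20.9 in Cre cells and 111 ± 22.7 in GFP cells.

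**Figure D3:**
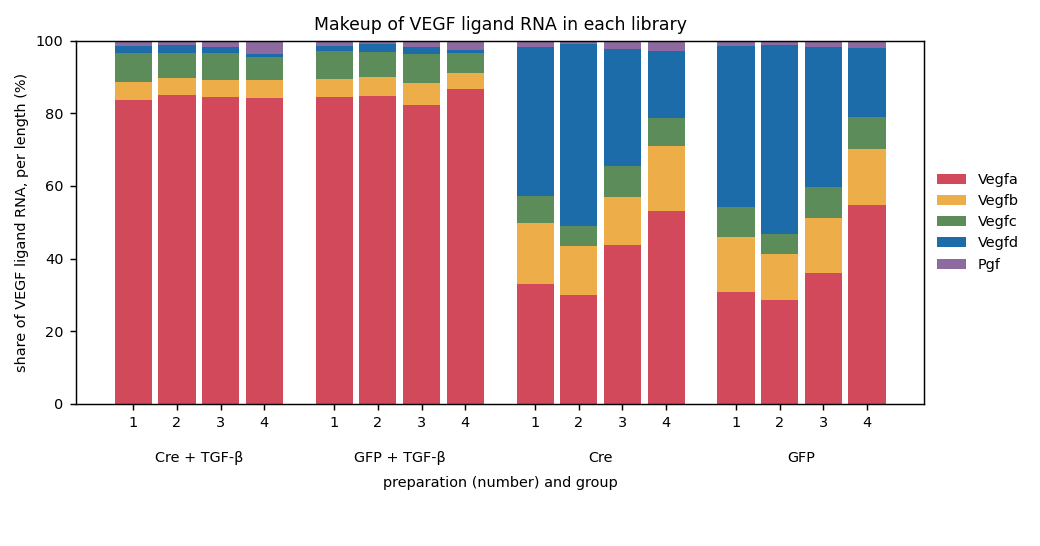
Share (%) of each VEGF ligand in the summed CPM per kb of exon of the 5 ligands, as a stacked bar per library, by group. Vegfa takes 82.4% to 86.7% of each bar with TGF-beta and 28.5% to 54.8% without it, where Vegfd takes 18.4% to 52.3%.

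The ratio of Vegfc to Vegfa per kb was 0.0844 ± 0.00985 in Cre + TGF-beta cells, against 0.189 ± 0.0310 in Cre cells. It was 0.0826 ± 0.0151 in GFP + TGF-beta cells, against 0.215 ± 0.0480 in GFP cells. It was lower with TGF-beta in 4 of 4 preparations in both, by 1.15 and 1.37 on the log2 scale. The 2-sided exact permutation test, which did not use the pairing by preparation, gave p = 0.0286 in each. This is the smallest that its 70 splits allow, and it was 0.114 after adjustment over 8 tests of 2 ratios.

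Among the angiopoietins, Angpt2 fell and Angpt1 did not pass the test. Angpt2, the antagonist, had 1.14, 0.716, 1.66 and 2.00 CPM in Cre + TGF-beta cells, against 3.53, 3.15, 2.81 and 4.52 CPM in Cre cells. It had 0.669, 0.752, 1.404 and 2.60 CPM in GFP + TGF-beta cells, against 3.31, 3.31, 3.82 and 5.02 CPM in GFP cells. The groups did not overlap, although counts were low, at 12 to 184 per library. The fall was -1.35 ± 0.38 in Cre cells (log2, edgeR adjusted p = 0.0153) and -1.50 ± 0.39 in GFP cells (adjusted p = 0.00916). Without preparation 1 or 3 the call was lost in both viruses and without preparation 2 in Cre cells (Angpt2 -1.19 to -1.53, adjusted p 0.0625 to 0.0924), whereas with the block and all 4 preparations Angpt2 was called at -1.41 ± 0.24 and -1.59 ± 0.25 (edgeR adjusted p = 0.000156 and 7.75e-05). Angpt2 overlaps Mcph1 on the other strand, and since the strand setting of the counting was not given, reads of these genes may be mixed. Mcph1 itself differed with TGF-beta by -0.08 ± 0.13 in Cre cells and 0.06 ± 0.13 in GFP cells, and was not called.

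Angpt1, the Tek agonist, had 7.23, 3.43, 9.73 and 3.09 CPM in Cre + TGF-beta cells, against 6.87, 2.76, 4.51 and 6.88 CPM in Cre cells. It had 3.96, 2.34, 5.26 and 4.53 CPM in GFP + TGF-beta cells, against 8.27, 3.28, 4.93 and 9.17 CPM in GFP cells. Preparation 2 was lowest in 3 groups and preparation 4 in Cre + TGF-beta cells, and the groups overlapped. The difference was 0.16 ± 0.42 in Cre cells (log2, edgeR adjusted p = 0.797) and -0.68 ± 0.43 in GFP cells (adjusted p = 0.256), and with the block 0.16 ± 0.29 (adjusted p = 0.671) and -0.65 ± 0.30 (adjusted p = 0.0908). In GFP cells Angpt1 was called with the block and without preparation 3 (-0.83, edgeR adjusted p = 0.0326) and in no other fit run. The ratio of Angpt1 to Angpt2 per kb was 3.29 ± 1.54 in Cre + TGF-beta cells against 1.05 ± 0.317 in Cre cells, and 2.57 ± 1.23 in GFP + TGF-beta cells against 1.17 ± 0.470 in GFP cells. It was higher with TGF-beta in 4 of 4 and 3 of 4 preparations. The unpaired 2-sided exact permutation p was 0.0857 in each (0.171 after adjustment over the same 8 tests).

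Of the angiopoietin-like factors, Angptl2 had 121, 118, 138 and 111 CPM in Cre + TGF-beta cells, against 199.9, 276, 222 and 216 CPM in Cre cells. It had 128, 152, 145 and 130.2 CPM in GFP + TGF-beta cells, against 207.5, 263, 232 and 230.1 CPM in GFP cells. All libraries with TGF-beta were below all those without. The fall was -0.90 ± 0.11 in Cre cells (log2, edgeR adjusted p = 3.07e-05) and -0.75 ± 0.11 in GFP cells (adjusted p = 0.000167). Angptl2 overlaps Ralgps1 on the other strand, which had at most 152 counts in a library, against at least 2290 for Angptl2.

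Angptl4, the lipase inhibitor, had 123, 94.6, 157 and 295 CPM in Cre + TGF-beta cells, against 89.6, 71.8, 125 and 220.0 CPM in Cre cells. It had 142, 115, 157 and 243 CPM in GFP + TGF-beta cells, against 86.7, 71.4, 117 and 208 CPM in GFP cells. Preparation 4 was highest and preparation 2 lowest in every group, so the groups overlapped although each of the 4 preparations was higher with TGF-beta in both viruses. The difference was 0.40 ± 0.42 in Cre cells (log2, edgeR adjusted p = 0.489) and 0.45 ± 0.42 in GFP cells (adjusted p = 0.462). With the preparation as a block it was called in both, at 0.40 ± 0.09 (adjusted p = 0.00108) and 0.52 ± 0.09 (adjusted p = 0.000134).

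The receptors of these ligands were also measured. Over all genes, the TGF-beta test called 30.3% in Cre cells and 29.1% in GFP cells, and 52.5% and 49.1% with the block. Of the 5 VEGF receptors and co-receptors, 0 rose and 0 fell with TGF-beta in Cre cells, and 0 rose and 1 fell in GFP cells. That receptor was Nrp1, a co-receptor of Vegfa, at -0.35 ± 0.18 in Cre cells and -0.52 ± 0.18 in GFP cells (log2, edgeR adjusted p = 0.144 and 0.0363). With the preparation as a block Nrp1 and Flt1 were called lower in each virus, and 1 receptor was called higher, the co-receptor Nrp2 in Cre cells and Flt4 in GFP cells. Per kb, Nrp1 averaged 5.49 ± 1.43 CPM in Cre + TGF-beta cells and 5.46 ± 0.839 in GFP + TGF-beta cells, against 7.01 ± 0.984 in Cre cells and 7.84 ± 1.14 in GFP cells. Flt4, the receptor of Vegfc and Vegfd, averaged 4.43 ± 0.938 and 4.83 ± 0.774 CPM per kb with TGF-beta, against 4.13 ± 0.906 and 4.04 ± 0.597 without it. Flt1 averaged 1.04 to 1.51 CPM per kb over the groups, and Kdr, the main Vegfa receptor, had 6 to 39 counts per library and at most 0.199 CPM per kb.

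Of the 4 genes of Tie signalling, 0 rose and 3 fell in each virus. Over all genes 14.0% rose and 16.3% fell in Cre cells, and 13.8% and 15.3% in GFP cells. With the block these shares were 25.2% and 27.3% in Cre cells, and 22.6% and 26.5% in GFP cells. Tek averaged 3.85 ± 1.21 CPM in Cre + TGF-beta cells and 3.83 ± 0.9747 in GFP + TGF-beta cells, against 16.3 ± 2.97 in Cre cells and 17.9 ± 2.99 in GFP cells, without overlap. Its fall was -2.23 ± 0.25 in GFP cells (log2, edgeR adjusted p = 1.14e-05). Tie1, the partner receptor of Tek, fell by 1.11 and Svep1, a matrix protein of lymphatic vessel growth, by 2.64 on the log2 scale in GFP cells (edgeR adjusted p = 0.0251 and 0.0119). Ptprb, the phosphatase that restrains Tek, did not pass the test. Flt1, Kdr, Tek and Tie1 are themselves among the 12 endothelial markers, so this list is not a separate measure of endothelial RNA. Of the 12 markers, 4 fell and 0 rose in each virus, and 8 fell and 0 rose with the block. Their summed level was 35.9 to 49.2 CPM in Cre + TGF-beta cells and 34.7 to 56.5 CPM in GFP + TGF-beta cells, against 50.6 to 91.2 CPM in Cre cells and 54.5 to 94.1 CPM in GFP cells, with no marker at 0 in all libraries. The part of endothelial RNA in the receptor values was not tested.

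**Figure D4:**
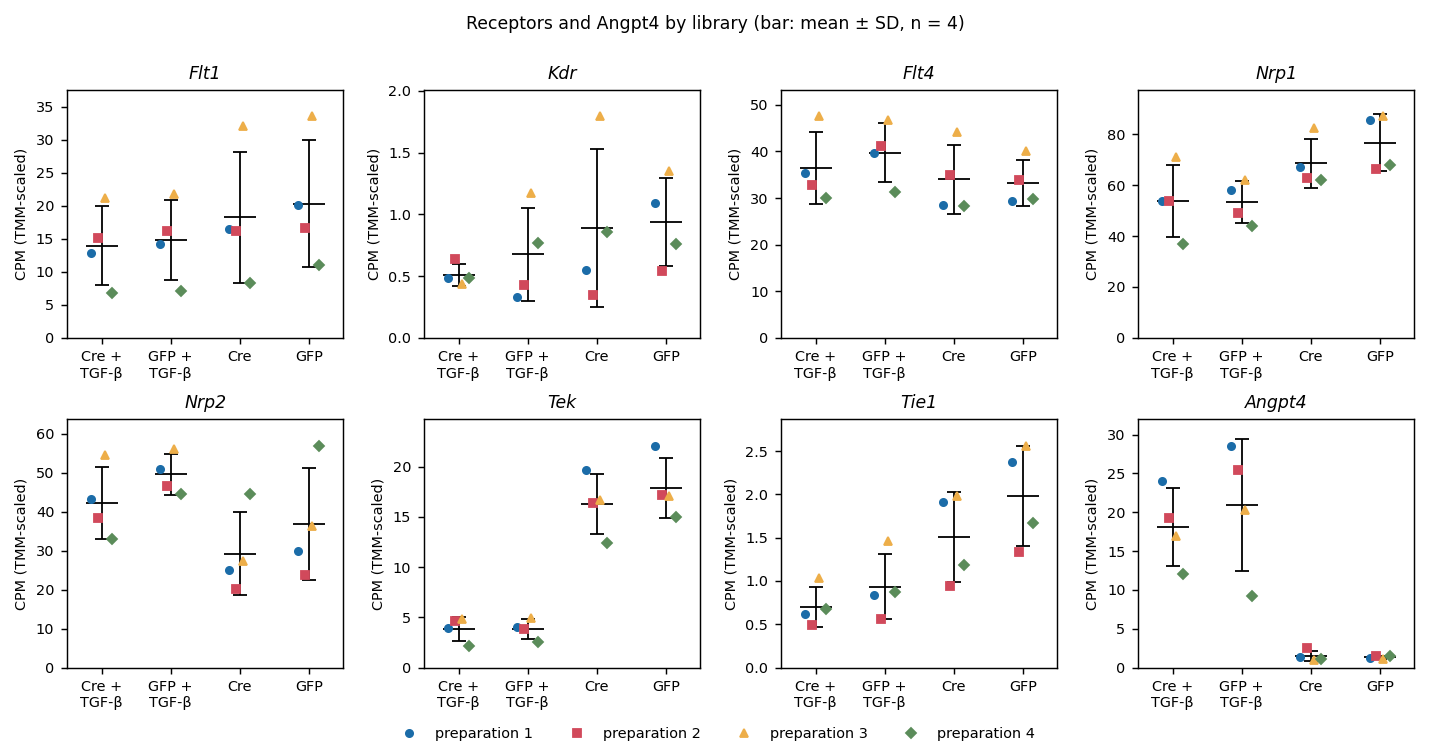
CPM (TMM-scaled, linear axis from 0) of the VEGF and Tie receptors and of Angpt4 in every library, by group, with points for preparations and a bar for the mean. Tek is at most 4.91 CPM with TGF-beta and at least 12.4 CPM without it, Angpt4 is at least 9.21 CPM with TGF-beta and at most 2.49 CPM without it, and Flt4 overlaps between the groups.

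Angpt4, the third mouse angiopoietin and a Tek ligand, is not among the 9 factors and moved opposite to Angpt2. It had 24.1, 19.3, 16.9 and 12.1 CPM in Cre + TGF-beta cells, against 1.41, 2.49, 1.01 and 1.11 CPM in Cre cells. It had 28.6, 25.5, 20.3 and 9.21 CPM in GFP + TGF-beta cells, against 1.28, 1.51, 1.07 and 1.47 CPM in GFP cells. Preparation 4 was lowest with TGF-beta, and the groups did not overlap. The rise was 3.56 ± 0.36 in Cre cells and 3.96 ± 0.38 in GFP cells (log2, edgeR adjusted p = 4.30e-06 and 2.47e-06). Of a list of 6 other angiopoietin and angiopoietin-like genes, 4 were tested. Angpt4 was the only one called with 1 mean per group, beside 30.3% of all genes in Cre cells and 29.1% in GFP cells. With the block Angptl6 was also called higher (0.92 ± 0.24 in Cre cells and 1.17 ± 0.26 in GFP cells, edgeR adjusted p = 0.00447 and 0.00158) and Angptl7 lower (-1.16 ± 0.32 and -0.95 ± 0.32, adjusted p = 0.00813 and 0.0251), while Angptl8 was not called.

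Genes that act with the factors were read by list in GFP cells, with 1 mean per group unless the block is named. Beside these counts, 13.8% of all genes were called higher and 15.3% lower in GFP cells, and 22.6% and 26.5% with the block. Of the 6 genes that process Vegfc and Vegfd, 1 rose and 0 fell, and it was the protease Adamts14 at 1.82 ± 0.25 (log2, edgeR adjusted p = 7.06e-05). With the block 3 of these 6 rose and 1 fell. Of 3 receptors reported for Angptl2, the integrin Itga5 rose by 2.04 ± 0.16 and Pirb fell by 2.91 on the log2 scale (edgeR adjusted p = 5.41e-07 and 0.000351), and with the block 2 rose and 1 fell. Pirb is a receptor of myeloid cells. The macrophage markers had 3 of 8 lower and 0 higher, and 8 lower and 0 higher with the block. Their sums were 404 to 999 CPM in Cre + TGF-beta cells and 430 to 912 CPM in GFP + TGF-beta cells, against 601 to 1588 CPM in Cre cells and 708 to 1481 CPM in GFP cells. Their part in the Pirb value was not tested. Of the lipase genes, Lpl, the enzyme that Angptl4 inhibits, averaged 8.62 ± 1.75 CPM in GFP + TGF-beta cells against 93.6 ± 34.3 CPM in GFP cells, a fall of -3.45 ± 0.33 (log2, edgeR adjusted p = 2.42e-06). Lipg, endothelial lipase, rose by 2.55 ± 0.46 (adjusted p = 0.000702).

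Lists linked to Vegfa and Angptl4 by known regulation were counted in the same way, beside the same shares of all genes. These were 13.8% higher and 15.3% lower, and 22.6% and 26.5% with the block. Genes of the response to low oxygen, which also acts on Vegfa, covered both regulators such as Epas1 and targets. Of these 16, 0 rose and 7 fell with TGF-beta in GFP cells, with a median log2 fold change of -0.41 against -0.019 over all genes. With the block 1 was higher and 10 were lower. Those with the smallest adjusted p were Adm (adrenomedullin, -2.71 ± 0.35), Egln3 (a prolyl hydroxylase, -1.42 ± 0.22), Epas1 (HIF-2 alpha, -3.16 ± 0.50) and Pdk1 (-1.11 ± 0.24), with edgeR adjusted p from 4.74e-05 to 0.00267. PPAR regulators and targets, the lipid-sensing program that includes Angptl4, had 1 of 11 tested higher and 5 lower, with a median of -0.63, and 1 higher and 6 lower with the block. The gene that rose was Plin2, a lipid droplet coat protein, by 1.28 ± 0.17 (adjusted p = 4.21e-05). Of 13 other secreted regulators of angiogenesis, 3 rose and 5 fell, with a median of -0.77, and 4 rose and 7 fell with the block. They included Hgf at -1.95 ± 0.26, Sema3e at 1.70 ± 0.24, Sema3c at -2.92 ± 0.52 and Thbs1 at 1.93 ± 0.41 (log2, edgeR adjusted p from 5.20e-05 to 0.00246).

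Cre against GFP cells asked whether the factors differed with the virus meant to delete Has2. No factor passed the test, with or without TGF-beta. With TGF-beta, 0 of 9 were called by edgeR, beside 0% of all genes, with log2 fold changes from -0.18 (Angptl2) to 0.55 (Angpt1). Without TGF-beta, 0 of 9 were called beside 0% of all genes, with fold changes from -0.28 (Angpt1) to 0.12 (Pgf). The unadjusted p was under 0.05 for 0 of 9 in both, and DESeq2 also called 0 of 9. With the preparation as a block, 0 of 9 were called again, beside 0.0654% of all genes with TGF-beta (all of them higher) and 0.170% without it (0.164% higher, 0.00654% lower). In that fit 1 of 9 factors, Angptl2 with TGF-beta, passed before adjustment only. Beside it, 2039 of all 15285 genes had an unadjusted p under 0.05 in the same comparison. Angptl2 differed by -0.18 (edgeR adjusted p = 0.358) and was lower in 4 of 4 preparations.

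The intervals show what sizes these data leave possible. With 1 mean per group, the 95% intervals of the 9 Cre against GFP log2 differences lay between -1.11 and 1.46 with TGF-beta. Without it they lay between -1.18 and 0.96. With the block, the 95% intervals lay between -0.51 and 1.18 with TGF-beta and between -0.89 and 0.42 without it. The widest with the block were those of Angpt1, at -0.12 to 1.18 and -0.89 to 0.35. Some factors differed in the same direction in every preparation without passing the test. How many of all genes did so was not counted, so this is a description only. With TGF-beta, Pgf was higher in Cre cells in 4 of 4 preparations. Without TGF-beta, Vegfd and Angpt1 were lower in 4 of 4 and Angptl4 was higher in 4 of 4, by 0.01 to 0.10 on the log2 scale.

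**Figure D5:**
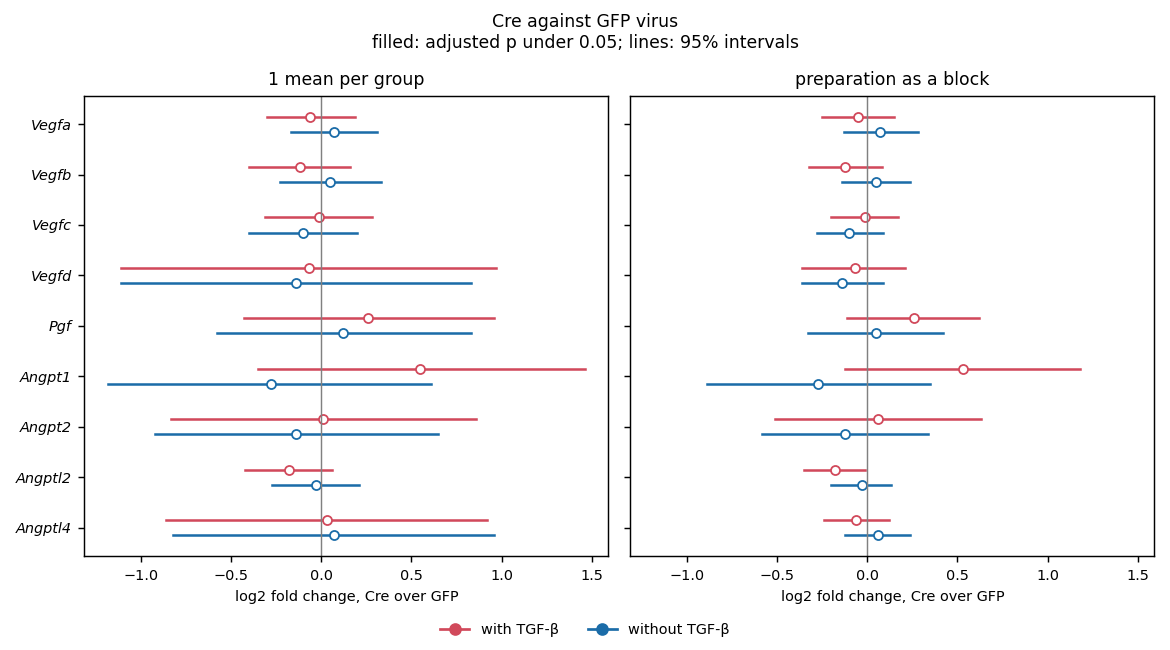
Log2 fold change of each factor in Cre over GFP cells, with and without TGF-beta, from the edgeR fit with 1 mean per group and from the fit blocked on preparation. Points are estimates and lines 95% intervals. No point is filled, and with the block the intervals narrow for every factor, most for Vegfd and Angptl4.

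The response to TGF-beta was also compared between the viruses. The difference of responses, Cre minus GFP, was called for 0 of 9 factors, beside 0% of all genes, by edgeR with or without the block, and the unadjusted p was under 0.05 for 0 of 9 in both fits. DESeq2 called 0 of 9 as well. It lay between -0.17 and 0.84 on the log2 scale. The high end was Angpt1, at 0.84 ± 0.60, with a 95% interval from -0.43 to 2.11, and at 0.81 ± 0.42 with the block, with an interval from -0.09 to 1.70. With TGF-beta, Angpt1 was higher in Cre cells by 0.87, 0.55 and 0.89 in preparations 1 to 3 and differed by -0.55 in preparation 4.

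Genes with the most similar profiles over the 16 libraries were found for the 3 factors with the largest called changes, by Pearson's r of log2 CPM among 11182 genes. The libraries share groups and preparations, so these values are a description. For Vegfd they were Emb (embigin, r = 0.994), Spry2 (an inhibitor of receptor tyrosine kinase signalling, 0.993) and Fbln1 (the matrix protein fibulin-1, 0.993). For Vegfa they were Pdgfc (a platelet-derived growth factor, 0.990) and Meox1 (a transcription factor, 0.989). For Angpt2 they were Sipa1 (0.959), Apln (the peptide apelin, 0.956) and Glrx (glutaredoxin, 0.956).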

How the data were processed

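RNA sequencing measured 16 libraries of mouse cardiac fibroblasts. The authors deposited raw read counts per gene, whole numbers that were not normalized. The submitters' processing notes name HTSeq 0.10.0, FastQC 0.10.1 and the build mm39 (GRCm39). Aligner, annotation and strandedness of the counting: not given in the sources used here. Symbols and exon lengths came from GENCODE M21, of the build GRCm38, so levels per kb use lengths of another build. It named 52081 identifiers, holding 99.9% of counts. Promoter sequences came from RefSeq on GRCm38.p6.

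Genes were kept with filterByExpr (minimum count 10, minimum total 15), scaled with TMM and tested over all 15285 genes with edgeR 4.0.16 (R 4.3.3), by the quasi-likelihood F test with 1 mean per group, all 16 libraries and Benjamini-Hochberg adjustment. Fold changes used a prior count of 0.125. The SE of a fold change was derived from the F value of its test. Intervals are at 95% and were built from this SE, so both are approximate. The script was tested on simulated data. Totals of 17.9 to 48.7 M counts set the counting precision.

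Library names in the labels begin alike for libraries of equal number, which was read as a shared cell preparation; the labels do not use that word. Deviations from the group mean had r of 0.323 to 0.838 over the 24 pairs of equal number, and at most 0.292 over the 72 other pairs. Results blocked on preparation are given where they changed the call of a gene or a list's count. The preparations differed in sex, so they did not all come from a single animal. Whether each was a separate animal is not stated. The p-values cover only the spread seen here, part of which may be technical. The biological coefficient of variation was 0.254 without and 0.123 with the block.

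Other settings tried were leaving out each library or preparation, fitting the compared groups alone, keeping all genes or those at 5 CPM in 4 libraries, RLE size factors and DESeq2 1.42.0. Ratios used exact permutation tests without the pairing by preparation. The 9 factors and the gene lists were chosen with earlier results of these data known. Genes named beyond the 9 were at most 4 called genes per list by smallest adjusted p in GFP cells, the VEGF and Tie receptors, Has2, Acta2, and the 3 most similar genes of 3 factors (1 of them is not reported here). Genes outside this rule (Mcph1, Ralgps1 and Ptprb, and the list members Angptl6, Angptl7 and Angptl8) were named after their values were seen.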

Additional observations from a re-analysis of the deposited data

Results flagged for a closer look

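In Cre + TGF-beta cells Pgf stood at 15.3 CPM in preparation 4, and the next highest library had 7.39 CPM. The gap was 0.874 of the group's range, above Dixon's 95% limit for 4 values. Of 44 groups of values examined, this was the only one past its limit, and chance puts about 1 in 20 past it. Preparation 4 also had the highest Pgf in the other 3 groups.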

How the results depend on the processing

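Equal library numbers were read as the same preparation. With that pairing as a block, 8030 genes were called for TGF-beta in Cre cells and 7498 in GFP cells, against 4629 and 4445 without it. For Cre against GFP it called 10 genes with TGF-beta and 26 without it, where the fit with 1 mean per group called 0 (with 268 and 169 genes at an unadjusted p under 0.05). It added Pgf (0.70 and 0.49) and Angptl4 (0.40 and 0.52) to the factors called with TGF-beta in Cre and GFP cells, and changed no other call of a factor with all 4 preparations. It added Angpt1 in GFP cells without preparation 3 (-0.83). DESeq2 called 0 and 3 genes for Cre against GFP with and without TGF-beta. Leaving out a library or a preparation gave 2317 to 6479 genes called in Cre cells and 2239 to 6055 in GFP cells for TGF-beta, and up to 17 for Cre against GFP without it. With the block, Cre against GFP with TGF-beta called 0, 0, 3 and 232 genes without preparation 1, 2, 3 and 4, and without TGF-beta 0, 0, 0 and 114, none of them a factor. The number of factors called for TGF-beta was 4 to 6 in these fits without the block, and 0 for Cre against GFP in all fits run. Over 1048 alternative values of the factors, 1011 kept their side of the threshold, and some uncalled values among them changed sign. Of the rest, 19 lost a call (Vegfc and Angpt2) and 18 gained one (all with the block), and 0 called values changed sign. Of 394 values for TGF-beta, 389 kept their direction, and the others were uncalled values of Angpt1 and Angptl4. For TGF-beta against none, both ratios kept their direction. Sign flips within pairs gave adjusted p of 0.333 or more for Vegfc to Vegfa with TGF-beta. With 4 pairs that test cannot give a p under 0.05, so it cannot decide on this ratio. The cause of the differences between fits was not tested. Depth limits Angpt2 most among the factors, with 12 to 184 counts per library, and other named genes with few counts include Kdr (6 to 39), Tie1 (13 to 73) and Angptl8 (3 to 51).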
